A study of Mus musculus with 2 samples.

Results

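The cells described here are B cell precursors of the mouse dorsal meninges. A cell was counted as a precursor where 3 conditions held. Cd79a and Cd79b, which encode the signalling chains of the B cell receptor, summed to at least 2 UMIs (unique molecular identifiers, each standing for 1 captured RNA molecule). At least 2 of the 6 genes Igll1, Rag1, Rag2, Vpreb1, Cecr2 and Cplx2 had a UMI, and Cd3e, a chain of the T cell receptor complex, had none. By this rule 173 of 5816 filtered cells, those with 150 to 5000 genes, at most 20% mitochondrial and at most 5% hemoglobin UMIs, were precursors, of which 76 of 2043 were in the Sham library and 97 of 3773 in the TBI library. The members were therefore chosen on measured UMIs, and the levels of these 9 genes in them describe the choice and support nothing.

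Both libraries came from male mice labelled C57BL/6, given as C57BL/6J wild-type in the study's methods. Their age is 10 weeks in one label and 10 to 12 weeks in another. In the TBI group, mice under isoflurane anaesthesia received 1 mild closed-skull impact over the right side of the head, while Sham mice had the same anaesthesia and handling but the impactor was released without touching the head. The dorsal meninges were taken 1 week later, without the site that had been hit, and those of 5 mice were pooled into each library. The tissue was scraped from the skullcap and digested with collagenase, and live singlets, sorted on the absence of DAPI stain, were run on the 10x Genomics 3′ platform. Cells of the meninges and cells carried over from the marrow of the skull cannot be told apart by any label, and there was no sort for CD45 or for B cells.

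Because each group is 1 library, no comparison between Sham and TBI has a replicate check, and no test was run. Intervals given below are exact 95% intervals of counting error alone, and they hold none of the variation between mice or between library preparations. The precursors held 316934 UMIs in Sham and 355232 in TBI. Their median depth was 3548.5 UMIs per cell in Sham (567 to 21525) and 2928 in TBI (690 to 11105), and that of the other cells with Cd79 RNA was 3147 and 2831. At these totals a count of 0 over all precursors of a library allows up to 9.47 UMIs per 1000000 UMIs of the class (CPM) in Sham and 8.45 in TBI, taking 3 counts as the limit. The libraries shared 20 cell barcodes as deposited, and 1 precursor barcode also occurred among the filtered cells of the other library.

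B cells are built in steps that can be read from their RNA. A pro-B cell joins the gene segments of its immunoglobulin heavy chain with the recombinase made of RAG1 and RAG2, and terminal deoxynucleotidyl transferase (Dntt) adds bases at the joints. A heavy chain that folds is paired with the surrogate light chain, made of the products of Igll1 and Vpreb1, to give the pre-B cell receptor, which together with interleukin 7 drives a burst of division. The surrogate light chain genes are then switched off, and the recombinase acts again on the light chain genes. Cells that carry a complete receptor leave the marrow. Ms4a1 (CD20), IgD and MHC class II mark the later of these steps.

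The surrogate light chain genes and Rag1 are the members of the rule that give these cells their name, and the promoters of early B lineage genes are known targets of EBF1 and of the E proteins. Igll1 lies on the reverse strand of chromosome 16 at chr16:16860671-16863985 and Vpreb1 beside it at chr16:16868403-16870843, while Rag1 lies on the reverse strand at chr2:101638282-101649501 (GRCm38, whole genes with exons and introns, as GENCODE draws them). The RefSeq start of Vpreb1 lies inside its GENCODE span. The 250 bases before each start site in the RefSeq annotation (GRCm38.p6) are shown because all 3 hold a match to a motif of those factors. The windows are chr16:16863986-16864235 for Igll1, chr16:16869256-16869505 for Vpreb1 and chr2:101649533-101649782 for Rag1, each written 5′ to 3′ on the gene's own strand. Capitals mark CCCNNGGG, the palindrome searched for EBF1, and CAGGTG or its reverse complement CACCTG, the E box searched for E2A, with both strands read and no overlap between the motifs.
Igll1: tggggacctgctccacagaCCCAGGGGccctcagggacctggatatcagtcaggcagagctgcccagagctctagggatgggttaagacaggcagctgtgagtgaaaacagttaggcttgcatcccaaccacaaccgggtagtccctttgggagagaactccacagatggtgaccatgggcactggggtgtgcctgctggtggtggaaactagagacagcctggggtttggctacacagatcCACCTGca
Vpreb1: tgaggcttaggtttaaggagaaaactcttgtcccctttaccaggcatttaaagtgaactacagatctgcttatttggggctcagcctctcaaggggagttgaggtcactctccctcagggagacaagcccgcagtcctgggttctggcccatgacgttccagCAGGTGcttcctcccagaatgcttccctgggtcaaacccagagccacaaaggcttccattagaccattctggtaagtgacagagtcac
Rag1: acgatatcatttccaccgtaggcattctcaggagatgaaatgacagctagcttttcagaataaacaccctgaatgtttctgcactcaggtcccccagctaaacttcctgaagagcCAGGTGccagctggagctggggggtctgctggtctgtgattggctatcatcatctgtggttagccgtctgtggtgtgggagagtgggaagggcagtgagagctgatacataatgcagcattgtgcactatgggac
The Igll1 window held CCCNNGGG at bases 231 to 224 before the start and CACCTG at bases 8 to 3. In the Vpreb1 window CAGGTG stood at bases 88 to 83, and in the Rag1 window at bases 135 to 130. Matches are common in windows of this length. Of the 32851 windows in the annotation, 11.8% held CCCNNGGG, 17.2% the E box, 26.6% either and 2.43% both. The same search matched Vpreb2, Cd79a and Cplx2 and found neither string in the windows of Rag2, Vpreb3 and Dntt. Cd79b and Cecr2 had no entry in the sequences used here. A match is a string of letters and not a measured binding site.

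The genes of the rule split the precursors into a small set with the surrogate light chain and a larger set without it. Igll1 was detected in 10 of 76 precursors in Sham, with 175 UMIs or 552 CPM, and in 20 of 97 in TBI, with 343 UMIs or 966 CPM. Vpreb1 was detected in 9 precursors of Sham (190 UMIs) and 20 of TBI (279 UMIs), and 26 of the 33 precursors that had either gene had both. Reads of Vpreb1 may be shared with its near-identical copy Vpreb2, which had 28 UMIs in 4 precursors of Sham and 16 in 7 of TBI. These transcripts were abundant where they occurred: a precursor with Igll1 held 12.5 UMIs of it at the median (1 to 64), and a precursor with Vpreb1 held 9 (1 to 81).

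The recombinase genes were spread more widely and thinly. Rag1 was detected in 47 of 76 precursors in Sham (91 UMIs, 287 CPM) and in 64 of 97 in TBI (106 UMIs, 298 CPM), and Rag2 in 28 (36 UMIs) and 52 (87 UMIs). At the median a precursor with Rag1 held 1 UMI of it, and the highest held 6. Cecr2, a chromatin remodelling factor, was detected in 63 precursors of Sham and 67 of TBI, and Cplx2, a regulator of vesicle fusion, in 59 and 61. The name of the population thus rests on Rag1 in 111 of 173 cells and on Igll1 in 30 of 173, so Rag1 marked most members and Igll1 a minority.

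The rule genes were also counted in cells outside the precursors, to give the level of free RNA. Among T cells, taken as cells with Cd3e and no Cd79 UMI and known to lack the surrogate light chain and the recombinase once mature, Igll1, Rag1 and Rag2 had no UMI in 135 cells of Sham and 242 of TBI, Vpreb1 was detected in 1 cell, Cecr2 in 1 and Cplx2 in 3, at median depths of 3971 and 3340.5 UMIs. The other Cd79 cells, 403 in Sham and 399 in TBI, hold at most 1 rule gene each by the rule, so their counts describe the choice. In them Igll1 was detected in 1 cell of each library, Rag1 in 8 and 4, Rag2 in 4 and 3 and Vpreb1 in 0 and 3, whereas Cecr2 was detected in 34 and 30 and Cplx2 in 28 and 24. Outside the Cd79 cells, Igll1 or Vpreb1 was detected in 9 of 1564 cells of Sham and 21 of 3277 of TBI, at no more than 2 UMIs in any cell.

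**Figure D1:**
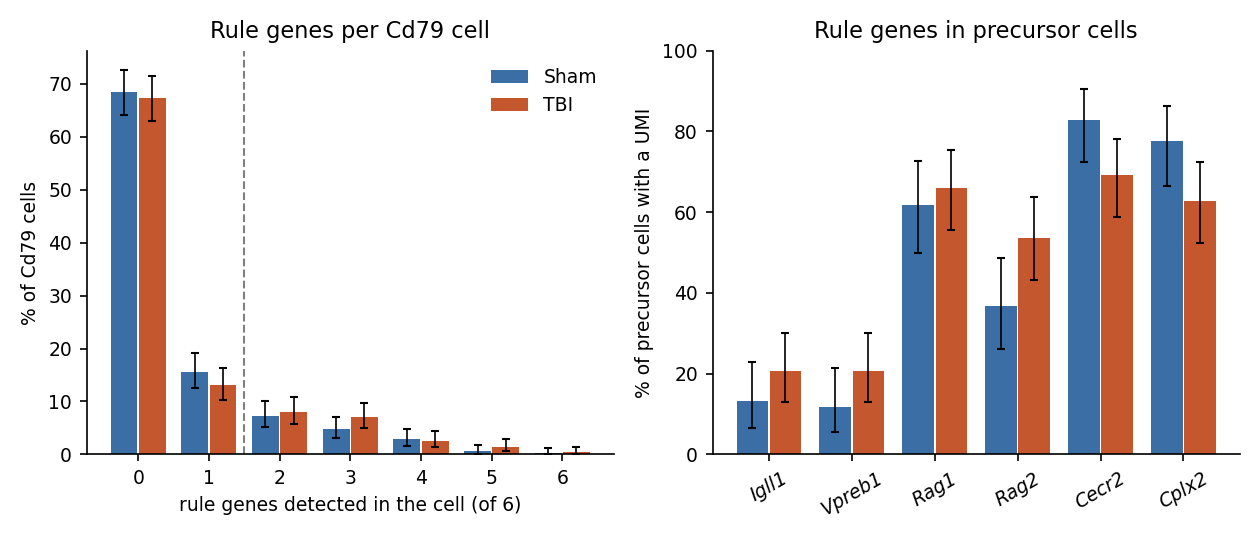
Left, the percent of Cd79 cells (y axis) by the number of the 6 rule genes detected (x axis), with the limit of the rule as a dashed line. Right, the percent of precursors with a UMI of each rule gene, Sham and TBI side by side, with exact 95% counting intervals as bars. Rag1, Cecr2 and Cplx2 were each detected in 61.8 to 82.9% of the precursors and Igll1 and Vpreb1 in 11.8 to 20.6%.

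The number of rule genes per cell declined without a gap at the limit. Of the Cd79 cells in Sham, 328 had no rule gene, 75 had 1, 35 had 2 and 41 had 3 or more, and in TBI the numbers were 334, 65, 40 and 57. Just outside the limit, cells with 1 rule gene had Il7r in 12.0% (Sham) and 24.6% (TBI), whereas just inside it, members with 2 rule genes had Il7r in 54.3% and 42.5%. Il7r encodes the interleukin 7 receptor and was not part of the rule. Among the 20 nearest neighbours of each cell, found from the 2000 most variable genes with the rule genes left out, precursors had a median of 16 that were also precursors, although precursors were 17.7% of the cells compared. At least 10 of 20 neighbours were precursors for 71.4% and 72.5% of members with 2 rule genes and for 92.7% and 98.2% of those with 3 or more. The same held for 18.7% and 20.0% of the cells with 1 rule gene, which were not members.

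Precursors were 3.72% of the filtered cells in Sham (2.94 to 4.63) and 2.571% in TBI (2.09 to 3.13). Of the Cd79 cells they were 15.87% in Sham (12.7 to 19.5) and 19.56% in TBI (16.2 to 23.3), so the direction between the libraries depended on the denominator. Of the cells with a UMI of Ptprc (CD45) they were 4.143% (3.01 to 5.54) and 2.552% (1.8 to 3.5). The TBI library held more cells outside the B lineage, and the other Cd79 cells went from 19.73% of filtered cells in Sham to 10.58% in TBI. The counting intervals of the 2 libraries overlapped for each of these 3 shares of precursors. With 2 of the 4 genes Igll1, Rag1, Rag2 and Vpreb1 required in place of 2 of 6, precursors were 1.273% of filtered cells in Sham and 1.325% in TBI, so the direction also turned with the rule.

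The precursors were put into 3 classes by the rule genes they carried, and the values of these classes are given as a description. Those with Igll1 or Vpreb1, called surrogate light chain precursors below, numbered 11 in Sham (14.47%, 7.45 to 24.4) and 22 in TBI (22.68%, 14.8 to 32.3). Those with Rag1 or Rag2 and neither of these genes numbered 49 and 64, or 64.47% and 65.98%. The remaining 16 in Sham (21.05%) and 11 in TBI (11.34%) rested on Cecr2 and Cplx2 alone. Among genes that the rule did not use, Ms4a1 was detected in 9 of 16 and 6 of 11 of these last cells, Il7r in 7 of 16 and 2 of 11 and Myb, a transcription factor of progenitors, in 7 of 16 and 6 of 11, against Myb in 30 of 49 and 33 of 64 of those with a recombinase gene. At least 10 of 20 neighbours were precursors for 8 of 16 and 6 of 11.

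Dntt was detected only in surrogate light chain precursors, among the 3 classes. It was found in 3 of 11 of them in Sham (27.3%, 6.02 to 61.0), with 24 UMIs, and in 13 of 22 in TBI (59.1%, 36.4 to 79.3), with 133 UMIs. None of the 140 precursors without the surrogate light chain held a Dntt UMI. In the other Cd79 cells it was detected in 0 of 403 and 4 of 399 cells, and in T cells in 0 of 135 and 1 of 242. Surrogate light chain precursors were deeper than the others, with medians of 6383 and 3917 UMIs against 3450 and 2811, and after every cell was thinned to 1000 UMIs Dntt was still found in 45.2% of 31 of them and in none of the 136 precursors without the surrogate light chain.

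Within the surrogate light chain precursors, Dntt marked cells with little light chain RNA. Igkc, the kappa light chain constant gene, was detected in 2 of the 16 precursors with Dntt and in 11 of the 17 without it. After thinning to 1000 UMIs the shares were 12.5% of 16 and 46.7% of 15. The larger share of the cells without Dntt were dividing: at least 3 of the 20 cell cycle genes used (the cell cycle list without Ccnd2 and Ccnd3) were detected in 11 of 17, against 3 of 16 with Dntt. These classes were small, and membership follows from genes detected in the same cells.

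Division was spread over the precursors with its highest share among those with the surrogate light chain. Cycling cells made up 18.42% of precursors in Sham and 20.62% in TBI, against 1.489% and 5.764% of the other Cd79 cells. Among surrogate light chain precursors 6 of 11 (54.55%) and 8 of 22 (36.36%) were cycling, and among the rest 8 of 65 (12.31%) and 12 of 75 (16%). Cycling precursors held more RNA, with medians of 6137 and 6078.5 UMIs against 3429.5 and 2729. At 1000 UMIs per cell the shares were 35.5% with the surrogate light chain and 13.2% without it, over both libraries.

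The share of precursors with Igkc was lower where the surrogate light chain was present, while the direction for Il7r depended on the measure. Il7r was detected in 10 of 11 and 18 of 22 surrogate light chain precursors and in 38 of 65 (58.5%) and 38 of 75 (50.7%) of the rest, whereas the other Cd79 cells had it in 4.47% and 7.02%. By CPM, which takes account of the greater depth of surrogate light chain precursors, its log2 ratio of those with over those without the surrogate light chain was -0.73 in Sham and 0.28 in TBI. T cells also use this receptor and had it in 51.9% and 42.1%. Igkc was detected in 6 of 11 and 7 of 22 surrogate light chain precursors and in 50 of 65 (76.9%) and 58 of 75 (77.3%) of the rest. The share in the rest was near that of the other Cd79 cells, 81.1% and 70.9%, and far above the free RNA level of T cells, 2.22% and 3.72%. In the other Cd79 cells with Ms4a1 and no UMI of C1qa, C1qb, C1qc, Csf1r or Lyz2 it was 87.8% and 86.5%. Thinned to 1000 UMIs, Il7r was found in 38.7% of surrogate light chain precursors and in 27.9% of the rest over both libraries, and Igkc in 29% and 61.8%.

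Ms4a1, the gene of CD20, was nearly absent where the surrogate light chain was present. It was detected in 0 of 11 and 1 of 22 surrogate light chain precursors, where 0 of 11 allows a share of up to 27.3% of cells with a UMI, taking 3 counts as the limit. It was detected in 11 of 49 and 6 of 64 precursors with a recombinase gene, and in 334 of 403 (82.9%) and 293 of 399 (73.4%) of the other Cd79 cells. Ighm, the constant gene of the IgM heavy chain, was detected in 74 of 76 and 96 of 97 precursors at a median of 7 UMIs. T cells had Ighm in 51.1% and 45.5% of cells at a median of 1 UMI, so a lone Ighm UMI does not mark a B lineage cell here. Ighm summed to 211.1 and 183.7 CPM in T cells, where Igkc summed to 10.38 and 9.719 CPM. The other Cd79 cells held 1981 and 1579 CPM of Ighm and 1464 and 1067 CPM of Igkc. The source of the Ighm UMIs in T cells was not tested.

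**Figure D2:**
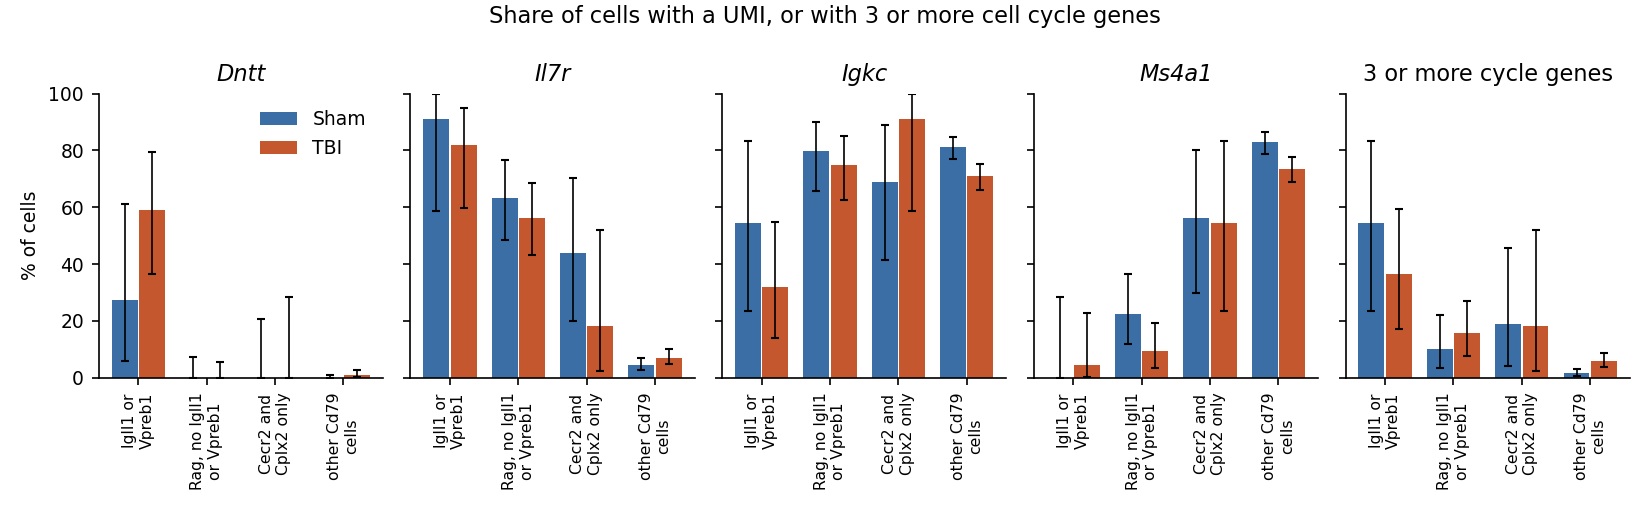
The percent of cells (y axis) with a UMI of Dntt, Il7r, Igkc or Ms4a1, and with at least 3 cell cycle genes, in 4 classes (x axis) of Sham and TBI: precursors with Igll1 or Vpreb1, with Rag1 or Rag2 only, with Cecr2 and Cplx2 alone, and other Cd79 cells. Bars are exact 95% counting intervals. Dntt is found in 27.3% and 59.1% of the first class and in no cell of the next, while Ms4a1 goes from 0 of 11 and 1 of 22 to 82.9% and 73.4%.

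The genes that went with the surrogate light chain were compared within each library, between precursors with and without Igll1 or Vpreb1. A gene was counted as higher or lower where its CPM differed at least 2-fold in the same direction in both libraries, with 0.5 UMI added to each sum. Of 2473 genes tested, 54 (2.18%) were higher and 129 (5.22%) lower with the surrogate light chain. Lef1, a transcription factor of early lymphocytes, was higher, at log2 ratios of 2.36 in Sham (29 UMIs with against 15 without) and 3.12 in TBI. Dntt was at least 21.6-fold and 110-fold higher. Among the genes ranked, Gsn (gelsolin, an actin-severing protein) had the highest ratio, 3.02 and 4.02, from 25 UMIs against 8 and 42 against 6. Lef1 ranked next. It was followed by Pmf1, a kinetochore protein, at 2.74 and 2.17, the filament gene Bfsp2 at 1.84 and 2.00, the glutathione transferase Gstp1 at 1.77 and 1.88 and the mitochondrial chaperone Hspd1 at 1.76 and 1.77. A surrogate light chain precursor of Sham held 21525 UMIs, 25.1% of the UMIs of its class, and without it the Sham ratio of Hspd1 was 0.20 and that of Gsn 3.04.

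Among the genes of later B cells, some were lower where the surrogate light chain was present. Of 10 mature B cell genes tested 5 were lower and none higher, including Ms4a1 (at least 17.8-fold lower in Sham, log2 ratio -2.30 in TBI), Fcmr, Hvcn1, Ccr7 and Ltb. MHC class II presentation had 3 of 5 lower, with Cd74, the invariant chain, at -4.85 and -3.08. Among 22 transcription factors of the B lineage, Lef1 alone was higher and 5 were lower: Ikzf3 (Aiolos, -1.74 and -3.13), Klf2 (-2.70 and -4.24), Bach2 (-1.20 and -1.20), Pou2f2 and Spib. In TBI, Ikzf3 and Klf2 each had 3 UMIs with the surrogate light chain, giving intervals of -5.66 to -1.75 and -6.75 to -2.88. Il2ra, the interleukin 2 receptor alpha chain known in small pre-B cells as CD25, was lower at -1.38 (-3.49 to -0.02) and -2.07 (-4.61 to -0.61), from 4 and 3 UMIs. The medians of the lists were -1.51 and -1.15 for mature B cell genes and -0.70 and -0.44 for transcription factors, against -0.02 and 0.03 over all genes tested.

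Several early genes stayed within 2-fold between these classes, while some signalling and cell cycle genes did not. Vpreb3 (0.07 and -0.35), Ebf1 (-0.35 and 0.10), Il7r (-0.73 and 0.28) and Myb (-0.14 and 0.58) were among the former. In the pre-B cell receptor list Lyn and Blk, kinases of the SRC family, were lower among 8 tested. In the cell cycle list Ccna2, Rrm1 and Mcm5 were higher among 17 tested, with medians of 1.52 and 0.65. Mzb1, a chaperone of immunoglobulin assembly, was higher at 1.26 and 1.14.

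Heavy chain variable RNA was near the level of the other Cd79 cells, and kappa variable RNA was lower. The precursors held 3150 CPM of heavy chain variable genes (Ighv) in Sham and 2620 in TBI, near the 3910 and 3000 CPM of the other Cd79 cells. The latter also carried macrophage RNA, which enters their totals. Immunoglobulin constant genes summed to 6664 and 4992 CPM in them. In those with Ms4a1 and no UMI of C1qa, C1qb, C1qc, Csf1r or Lyz2 the sums were 8185 and 7606 CPM. The variable genes were not summed in that subset. For kappa variable genes (Igkv) the precursors held 3050 and 2880 CPM, and the other Cd79 cells 12600 and 8630. A precursor with Igkv RNA had a median of 5 UMIs of it in Sham and 7 in TBI, against 43 and 32 in the other Cd79 cells. T cells held at most 6.8 CPM of Ighv and 16.5 CPM of Igkv.

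In surrogate light chain precursors the variable genes of the heavy and kappa chains were lower than in the rest and those of the lambda chain were not found. Ighv summed to 1060 and 1130 CPM, with a UMI in 9 of 11 and 13 of 22 cells, and Igkv to 595 and 746 CPM, in 6 of 11 and 8 of 22. Lambda variable genes (Iglv) had no UMI in 11 and 22 of these cells, which allows a share of up to 27.3% and 13.6% of cells with a UMI, by the same limit of 3 counts. Precursors without the surrogate light chain had Ighv in 63 of 65 and 73 of 75 cells (3920 and 3220 CPM) and Igkv in 53 of 65 and 55 of 75 (3960 and 3740 CPM). Precursors with Dntt had any Ighv gene in 3 of 3 and 7 of 13 cells and any Igkv gene in 0 of 3 and 1 of 13. The 6 lowest ranked genes with over without the surrogate light chain were immunoglobulin genes, namely Iglv1, Iglv2, Ighv8-8, Ighv1-19, Iglc3 and Igkv17-121. Iglv1 had no UMI with the surrogate light chain and was at least 73.1-fold lower in Sham and 48.2-fold in TBI, its 591 and 360 UMIs lying in 13 and 15 precursors. Iglv2 was at least 15.3-fold and 17-fold lower, Ighv8-8 at least 7.17-fold and 6.56-fold and Ighv1-19 at least 3.71-fold and 6.03-fold, each from no more than 6 precursors. Iglc3, the one constant gene among them, was at -4.89 (1 UMI against 119) and -4.24 (2 against 117), and Igkv17-121 was at least 22.3-fold lower in Sham and at -4.20 in TBI, where 1 cell held 89.9% of its UMIs. Many variable genes are close copies of each other, so counts of single ones are uncertain where reads could be split between them.

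**Figure D3:**
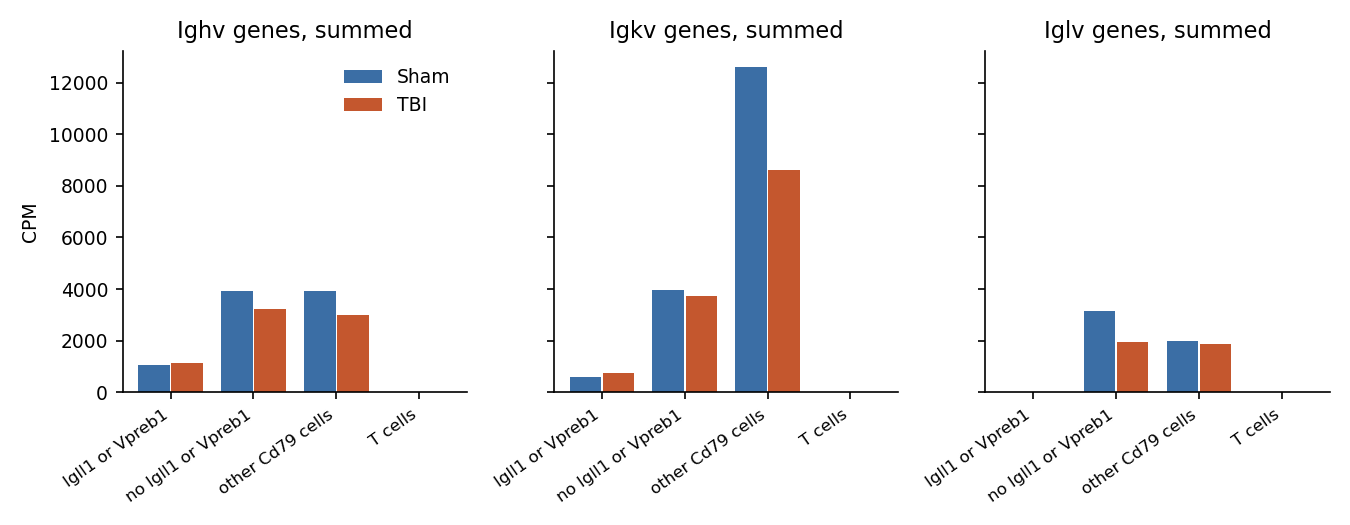
Summed CPM (y axis) of heavy (Ighv), kappa (Igkv) and lambda (Iglv) variable genes in precursors with and without Igll1 or Vpreb1, other Cd79 cells and T cells, for Sham and TBI. The bars are single sums with no error. Igkv is 595 and 746 CPM with the surrogate light chain, 3960 and 3740 without it and 12600 and 8630 in other Cd79 cells.

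The precursors were next set beside the other Cd79 cells, to describe what else differs between cells on either side of the rule. Since the rule made this contrast, the values below are a description. Of 7378 genes outside the rule with at least 20 UMIs over both classes in each library, 449 (6.09%) were at least 2-fold higher in precursors in both libraries and 563 (7.63%) at least 2-fold lower. With size factors in place of CPM every ratio was lower by 0.34 in Sham and 0.37 in TBI on the log2 scale, and the counts became 260 higher and 842 lower. The median ratio over all genes was 0.16 in Sham and 0.18 in TBI.

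Some genes of recombination stood higher in precursors, and of the pre-B cell receptor list Vpreb3 did. Of 10 tested genes of recombination and end joining, 5 were higher and none lower: Dntt (at least 35.8-fold in Sham, log2 ratio 5.86 in TBI), the ligase Lig4 (3.31 and 3.18, from 25 UMIs against 11 and 29 against 13), the Ku70 gene Xrcc6 (3.33 and 3.81) and the DNA-bending proteins Hmgb2 (3.72 and 3.74) and Hmgb1 (2.14 and 2.23). Hmgb2 is also known as a gene of dividing cells. Of 8 genes of the pre-B cell receptor list, Vpreb3 was higher, with 3868 CPM against 1401 in Sham (log2 ratio 1.47, interval 1.36 to 1.57) and 3975 against 1118 in TBI (1.83, 1.73 to 1.93). Vpreb3 was detected in 71 of 76 and 97 of 97 precursors and in 70.7% and 63.2% of the other Cd79 cells. The adaptor Blnk (0.76 and 1.35) and the kinase Syk (0.64 and 0.55) did not reach 2-fold in both libraries, and the list's median was 0.27 and 0.48 by CPM but -0.07 and 0.10 with size factors, so its direction in Sham depended on the scaling.

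Among 24 transcription factors tested, 8 were higher and 2 lower. Lef1 (3.88 and 4.67), Myb (3.51 and 3.26), Sox4 (2.88 and 2.75), Irf4 (2.39 and 2.27) and Bcl7a (2.37 and 2.50) stood highest, followed by Bach2 (1.83 and 2.07). Myb was detected in 46 of 76 and 56 of 97 precursors. Ebf1, which sets the B lineage, had log2 ratios of 1.23 and 1.68, and Tcf3, which encodes E2A, 1.32 and 1.78, and with size factors both fell short of 2-fold in Sham. Pax5, the factor that holds B cell identity, was at 0.47 and 0.58. Irf8 and Pou2f2 were lower, at -1.20 and -1.47 and at -1.67 and -1.54.

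Receptors that tie precursors to their niche were partly higher, 6 of 14 tested and none lower by CPM. Il7r had log2 ratios of 4.34 and 3.54, Bst1 (BP-3, an ectoenzyme of early B cells) 3.14 and 2.12, Il2ra 2.59 and 2.86, Cd93 2.16 and 1.40, the CXCL12 receptor Cxcr4 1.70 and 1.73 and Spn (CD43) 1.60 and 1.26. With size factors Spn no longer reached 2-fold and Crlf2, Itgb1, Csf2rb and Il2rg were lower, and the median moved from 0.14 to -0.20 in Sham and from 0.61 to 0.24 in TBI. Cd24a, whose product is the heat-stable antigen, was at 0.36 and 0.97. Kit, a receptor of the earliest progenitors, had no UMI in the precursors of Sham and was detected in 3 cells of TBI, and Flt3 had none in either.

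Most genes of mature B cells were lower in precursors. Of 20 tested, 13 were lower and none higher, with median ratios of -2.05 and -1.61: Fcer2a (CD23) at -2.92 and -2.79, Bank1 at -2.61 and -3.15, Cd22 at -2.30 and -1.89 and Ighd at -2.22 and -1.39. Cr2, the complement receptor CD21, had 1 UMI in the precursors of each library, at ratios of -3.56 (-9.46 to -1.62) and -2.90 (-8.81 to -0.92). Ms4a1 had 144 UMIs in precursors and 2787 in other Cd79 cells of Sham (-2.11) and 72 and 2158 in TBI (-2.84). Siglecg (-0.06 and 0.06) and Cd37 (-0.44 and -0.40) were near even. MHC class II genes were lower in 9 of 10, with H2-Eb1 at -4.56 and -4.89, H2-Aa at -4.13 and -4.35 and Cd74 at 3354 CPM against 28383 in Sham and 2007 against 30843 in TBI. Ciita, the master regulator of these genes, was lower at -2.28 and -2.65.

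The other Cd79 cells also carried macrophage RNA, which shares the MHC class II genes. Markers of macrophages summed to 8328 CPM there in Sham and 19000 in TBI, against 173.5 and 1872 in precursors. Set against only those other Cd79 cells that had Ms4a1 and no UMI of C1qa, C1qb, C1qc, Csf1r or Lyz2, 312 in Sham and 230 in TBI, 9 of 10 MHC class II genes were lower (medians -2.68 and -2.98). Of the mature B cell genes 18 of 20 were lower (-2.29 and -2.21), but these cells were chosen by Ms4a1, a gene of that list. In that comparison 366 of 6070 genes (6.03%) were higher and 321 (5.29%) lower. Of the list of early and niche receptors, 6 of 12 tested were higher there and 1 lower, with medians of 1.24 and 1.14.

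Of the lists tested, the cell cycle genes had the highest median when all cells were kept. Without cycling cells, which are defined by genes of this list, it was 0.02 over the 6 genes still tested. With all cells kept, 17 of 18 tested genes of the list were higher, with medians of 4.62 and 3.64. Mki67 stood at 5.95 and 3.77, Top2a at 5.30 and 3.33 and Ccnb2 at 5.21 and 6.28. The exception was Ccnd2, lower at -1.11 and -1.59, whereas Ccnd3, the D cyclin known from pre-B cells, was at 1.87 and 1.98. Of 6 immunoglobulin constant genes 4 were lower, namely Ighd, Iglc1 (-1.11 and -1.19), Iglc2 (-1.28 and -1.95) and Iglc3 (-1.52 and -1.24), while Ighm (-0.01 and 0.39) and Igkc (-0.56 and -0.22) were within 2-fold.

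Among 8 survival genes tested, 2 were higher and 1 lower by CPM, and 1 was higher and 2 lower with size factors. Bcl2, which keeps mature lymphocytes alive, was lower in precursors at -3.17 (-9.07 to -1.21) and -2.61 (-6.00 to -1.01), from 1 and 2 UMIs there against 60 and 63. Its relative Bcl2l1 (BCL-XL) was higher at 2.52 and 1.96, as was the kinase gene Pim1 at 2.07 and 1.27 by CPM. With size factors Pim1 fell short of 2-fold in TBI at 0.90, and Mcl1 was lower at -1.20 and -1.30. Of 20 interferon-induced genes 5 were lower by CPM (medians -0.54 and -0.90) and 9 with size factors (-0.89 and -1.27), among them Irf7 and Ly6a, the latter at -4.78 (-8.16 to -3.24) and -3.12 from 2 and 8 UMIs in precursors. Of 11 genes induced by tissue dissociation 3 were lower, namely Fos, Ier2 and Hspa1a, but against the Ms4a1 cells without macrophage UMIs it was 1 of 8 (medians -0.05 and -0.02). Of 4 plasma cell markers tested, Mzb1 (1.08 and 1.51), Slamf7 (1.74 and 1.55) and Sdc1 (1.89 and 2.61) were higher by CPM, and with size factors Mzb1 fell short of 2-fold in Sham at 0.74. Against the Ms4a1 cells without macrophage UMIs 1 of 3 such markers tested was higher. Sdc1 is known in early B cells as well as in plasma cells, and Prdm1, the regulator of the plasma cell fate, had no UMI in the precursors.

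Ranked by the ratio nearest to 0 of the 2 libraries, the 10 highest genes outside the rule were Ccnb2, Cenpf, Rrm2, Birc5, Ube2c, Pclaf, Lef1, Mki67, Hmgb2 and Slc12a3. Slc12a3, a sodium and chloride cotransporter, had 45 UMIs in precursors against 17 in Sham (3.54) and 64 against 11 in TBI (4.54). The 10 lowest were 8 kappa variable genes with Pid1 and Pirb, an inhibitory receptor of myeloid and B cells. Igkv6-15 had no UMI in precursors and was at least 70.5-fold and 28.5-fold lower, but its 948 and 355 UMIs lay in 17 and 7 of the other Cd79 cells, so such ratios rest on few cells.

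**Figure D4:**
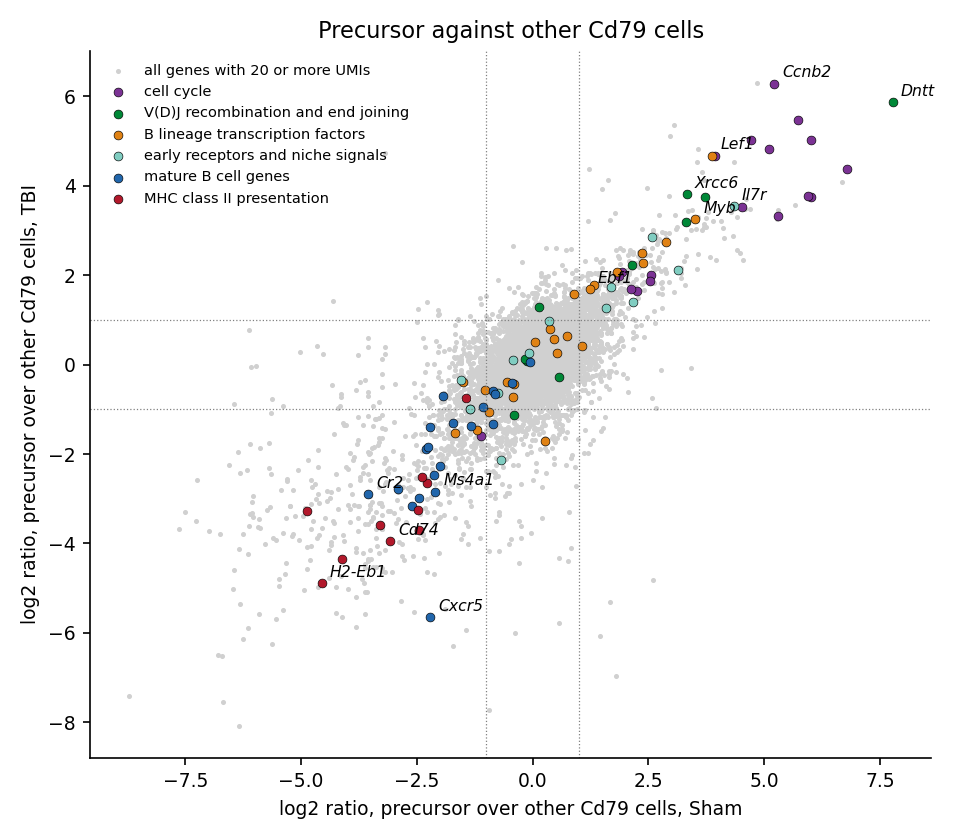
The log2 ratio of CPM, precursors over other Cd79 cells, in Sham (x axis) and TBI (y axis), 1 point per gene, coloured by gene list. Dotted lines mark 2-fold, and the position of genes with 0 UMIs depends on the 0.5 UMI added. Il7r lies at 4.34 and 3.54, Lef1 at 3.88 and 4.67 and Ms4a1 at -2.11 and -2.84.

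Markers of other cell types were mostly few among the precursors. T cell markers had 5 UMIs in Sham and 12 in TBI, with Lat the most abundant and Trac and Trbc2 at 0. NK cell markers had 1 and 0 UMIs, neutrophil markers 4 and 17, and progenitor markers 3 and 13, most of Ly6a. Plasmacytoid dendritic cell markers had 102 and 91 UMIs, most of Tcf4, which B cells also express, and Siglech had 0 and 1. Endothelial markers had 43 UMIs in each library, most of Pecam1, with Cldn5 at 0. Fibroblast markers had 11 and 78 UMIs, with Igfbp5 the most abundant.

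Macrophage and red cell RNA differed between the libraries. Macrophage markers had 55 UMIs in the precursors of Sham and 665 in those of TBI, with Ctss and Apoe most abundant and Pf4, Mrc1 and Ms4a7 at 0 in Sham. They were seen in 36 and 55 precursors, but 2 precursors of TBI held 577 of the 720 UMIs of both libraries. Erythroid markers, which are 4 hemoglobin genes and Alas2, went the other way, with 441 UMIs (1391 CPM) in Sham and 77 (216.8 CPM) in TBI, and the other Cd79 cells had 1906 and 321.1 CPM. The part of this RNA in the values below was not tested, apart from the fits without the precursors of 10 or more macrophage UMIs.

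Between TBI and Sham most genes tested stayed within 2-fold in the precursors, and so did most of those of the B lineage lists. Of 4992 genes outside the rule with at least 20 UMIs over both libraries, 167 (3.35%) were at least 2-fold higher in TBI and 145 (2.9%) at least 2-fold lower, and with size factors 183 and 144. The median log2 ratio over all of them was 0.01. None of 22 transcription factors tested reached 2-fold in either direction (median 0.01), with Ebf1 at 0.04 (-0.09 to 0.16), Pou2af1 at 0.50 (0.20 to 0.81) and Ikzf1 at -0.88 (-1.36 to -0.42). The 9 genes tested of the pre-B cell receptor list (median -0.10), 12 early receptors (0.07), 22 cell cycle genes (0.32), 6 survival genes (-0.23) and 11 interferon-induced genes (0.01) also had none past 2-fold. Of 7 tested genes of recombination and end joining (median 0.31), Dntt and Prkdc were past 2-fold, as given below. Vpreb3 was at 0.04, Il7r at -0.11, Ighm at 0.07 and Igkc at -0.12.

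Dntt showed the largest ratio in TBI among the tested genes of the B lineage lists. It had 24 UMIs in 3 precursors of Sham and 133 in 13 of TBI, a log2 ratio of 2.28 with a lower bound of 1.67. No precursor held more than 41.7% of its UMIs in Sham or 39.8% in TBI. That bound treats the UMIs as independent although they lay in few cells. As shares of cells, 3.95% (0.822 to 11.1) and 13.4% (7.33 to 21.8) of the precursors held Dntt, with overlapping counting intervals. The surrogate light chain precursors, which alone among the precursors held it, numbered 11 and 22. Among the genes of the rule, Rag2 was at 1.10, Igll1 at 0.80, Vpreb1 at 0.39 and Rag1 at 0.05, as a description. Outside the Cd79 cells Dntt was detected in 10 of 1564 cells of Sham (14 UMIs) and in 27 of 3277 of TBI (220 UMIs, of which 87 lay in 1 cell), and the part of such RNA in the result was not tested. Prkdc, the kinase that acts with Ku in end joining, was past 2-fold at 1.33, but from 5 and 15 UMIs and with an interval of -0.11 to 3.23.

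Of the genes of later B cells, 1 of 15 mature B cell genes and 2 of 8 MHC class II genes were at least 2-fold lower. Of all genes tested 3.35% were higher and 2.9% lower. Ms4a1 was the 1 mature B cell gene past 2-fold (median of the list -0.30). It had 144 UMIs in 20 precursors of Sham and 72 in 13 of TBI, a log2 ratio of -1.16 (-1.59 to -0.75). Of these UMIs, 96 and 52 lay in 9 and 6 precursors that rested on Cecr2 and Cplx2 alone, a class with 1474 and 1234 CPM of it. The interval treats the UMIs as independent although most lay in these few cells. The MHC class II genes past 2-fold were H2-DMb2 at -1.43 and H2-DMa at -1.25 (median of the list -0.39), and Cd74 was at -0.74. In TBI 1 cell held 33.7% of the UMIs of Cd74, 52.1% of those of H2-Aa and 64.7% of those of H2-Eb1. Without the 2 precursors with 10 or more macrophage UMIs the median of the MHC class II list was -1.11. Iglc2 was lower at -1.04, the 1 of 6 immunoglobulin constant genes past 2-fold (median -0.15). Jun, which tissue dissociation induces, was higher at 1.23 from 16 and 43 UMIs, the 1 of 7 such genes past 2-fold.

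Several genes with the largest ratios between the libraries had most of their UMIs in 1 or 2 cells, while the hemoglobin genes were spread over many. Of the 8 highest genes ranked, C1qa (5.41), C1qb (5.37), C1qc (5.12), Apoe (4.14) and Lyz2 (3.23) are macrophage genes. The C1q genes had 1 UMI each in Sham, so the ratio of C1qa had an interval of 3.46 to 11.3. In TBI 81.69% of the C1qa UMIs and 56.5% of those of Apoe lay in 1 cell. Igkv5-48 (5.53, interval 3.58 to 11.4, from 1 UMI in Sham) and Igkv8-30 (3.46) are kappa variable genes with 94.8% and 78.18% of their UMIs in 1 cell, and Dntt was the last of the 8. Of the 8 lowest, 4 were variable genes: Igkv8-28, with 96 UMIs in 2 precursors of Sham, was at least 35.9-fold lower, Ighv1-54, with 50 UMIs in 2, at least 18.7-fold lower, and Igkv9-120 (-5.27, interval -7.78 to -3.90, from 3 UMIs in TBI) and Igkv1-117 (-3.78) had 85% and 96.2% of their UMIs in 1 cell. The others were the hemoglobin genes Hba-a2 (-2.99), Hba-a1 (-2.70) and Hbb-bs (-2.54, 179 UMIs in 60 cells and 34 in 31) and the histone gene Hist1h1a (-1.95), of which 1 cell of Sham held 75.82%. In all, 8 of 9 macrophage markers tested were higher in TBI, 4 of 4 hemoglobin genes lower and Igfbp5 higher at 3.01, the 1 fibroblast marker tested. Fibroblast markers also differed in the other Cd79 cells, at 25.35 CPM in Sham and 322.5 in TBI, with 13 and 233 UMIs of Igfbp5.

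**Figure D5:**
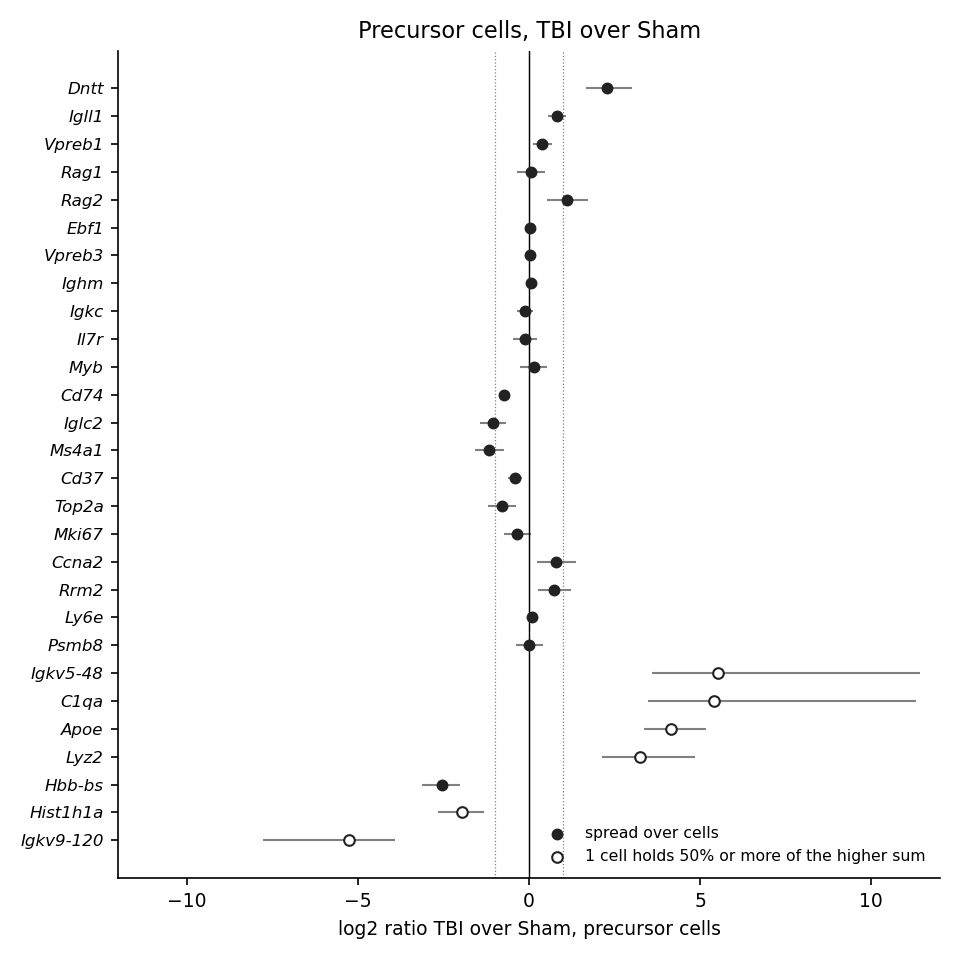
The log2 ratio of CPM, TBI over Sham, for 28 genes of the precursors (x axis), with exact 95% counting intervals as lines and dotted lines at 2-fold. Open circles mark genes of which 1 cell held at least 50% of the higher sum. Dntt at 2.28 is a filled point above 2-fold, Ms4a1 lies at -1.16, and Ebf1, Vpreb3 and Igkc lie near 0, at 0.04, 0.04 and -0.12.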

How the data were processed

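The deposited files hold 1 matrix of UMI counts per library, which the authors made with Cell Ranger on the mm10 build. The version is given differently by the study's methods, the submitters' processing notes (2.1.1) and the matrix header (3.1.0), so it is not settled. The tables held 2699 barcodes with 9527334 counts in Sham and 4349 with 15011079 in TBI, more barcodes than the cells named in the study's methods. Cells were kept with 150 to 5000 genes, at most 20% mitochondrial and at most 5% hemoglobin counts, following the study's limits. Precursors, the gene lists and the comparisons were chosen with earlier results of these data known. UMIs were summed per library and class, scaled to CPM and compared as log2 ratios with 0.5 UMI added, with intervals of counting error from exact binomial bounds.

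With 1 library per group there was no test and no p-value. Genes were named by rank (the 10 highest and 10 lowest against other Cd79 cells at 50 UMIs or more over both classes in each library, 8 and 8 for TBI over Sham at 50 over both libraries, 6 and 6 within precursors at 30 in each library) or as members of the rule and of 21 gene lists. Scrublet's own threshold marked 2 and 4 cells and had not worked, so the top-scoring 33 cells of Sham and 114 of TBI were marked, by the rate of 0.8% per 1000 cells. 0 and 4 precursors were among them and were kept, and leaving them out was an alternative. Thinning drew 1000 UMIs per cell and left out shallower cells, keeping 72 of 76 and 95 of 97 precursors. Rag1 overlaps B230118H07Rik on its strand and Igkc overlaps Gm30211 in GENCODE, and such counts may be shared. 3 barcodes of Sham and 2 of TBI met the gene rule but were outside the cell limits. The ratio code was tested on simulated data. Python 3.11.15, numpy 2.4.6, scipy 1.17.1, pandas 2.3.3, scanpy 1.11.5 and scikit-learn 1.9.0 were used.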

Additional observations from a re-analysis of the deposited data

Results flagged for a closer look

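Cox6a2, a subunit of cytochrome c oxidase, went in opposite directions in the 2 libraries when precursors were set against other Cd79 cells. Its log2 ratio was 1.26 in Sham, from 27 UMIs against 51, and -0.85 in TBI, from 15 against 115. Cox6a2 is one of the plasmacytoid dendritic cell markers, which summed to 474 CPM in other Cd79 cells of Sham and 764.5 in TBI. Against the Ms4a1 cells without macrophage UMIs it was higher in both libraries, at 2.22 in Sham and 1.82 in TBI. Ly6e, an interferon-induced gene, had a log2 ratio of precursors with over precursors without the surrogate light chain of -0.52 in Sham (162 UMIs against 627) and 0.23 in TBI (300 against 636). Neither difference between the libraries was tested.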

How the results depend on the processing

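No paired analysis was possible because the groups share only 1 replicate number, with 1 library each, so no library could be left out either. The share of precursors was set by the rule. With 3 or more rule genes it was 2.007% of filtered cells in Sham and 1.511% in TBI (8.559% and 11.49% of Cd79 cells), with 2 of the 4 genes Igll1, Rag1, Rag2 and Vpreb1 it was 1.273% and 1.325% (5.428% and 10.08%), and after thinning to 1000 UMIs 1.511% and 1.391% (5.967% and 11.25%). The direction between the libraries of the share of filtered cells thus turned under the rule with 4 genes. Thinning took the share of precursors with Igkc to 59.72% and 52.63%. Against other Cd79 cells, 260 genes were higher with size factors and 1154 with no limit beyond 1 UMI, and 1036 were lower with no such limit and 321 against the Ms4a1 cells without macrophage UMIs. For TBI over Sham, 2337 were higher and 1552 lower with no limit, and 300 were lower by the mean over cells. The median of the cell cycle list against other Cd79 cells was 0.02 without cycling cells, which follows from the choice of those cells by genes of the list and rests on the 6 genes still tested. It was 5.19 against cells with 0 rule genes and 5.91 against the Ms4a1 cells. For TBI over Sham the median of early receptors was -0.03 by the mean over cells and -0.27 without the surrogate light chain precursors, that of the cell cycle list 0.75 without the latter and that of interferon-induced genes -0.25 without cycling cells.

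Some single genes changed sign. Mcm5 was at -0.20 against other Cd79 cells without cycling cells. Against the Ms4a1 cells Lyz2 was at 5.35, since those cells were chosen to have no UMI of it. For TBI over Sham, Hist1h1a was at 0.79 without cycling cells and 0.43 without surrogate light chain precursors, and Igkv1-117 at 0.68 with 3 or more rule genes. No ratio was given where an alternative left a gene with 3 or fewer UMIs on both sides, as it did for Pf4 and Csf1r without marked doublets and for Dntt without the surrogate light chain precursors. Where no reason is given, the cause was not tested. The alternatives with Ms4a1 cells, without macrophage-rich precursors, without surrogate light chain precursors and without the deepest precursor were chosen after seeing the data. Depth limits any gene under 3 UMIs per class and every statement on the 11 and 22 surrogate light chain precursors.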

Other observations

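Of the 9 cells of Sham and 21 of TBI outside the Cd79 cells that held Igll1 or Vpreb1, 6 and 12 had 10 or more macrophage marker UMIs, and 3 and 3 had a Cd79 UMI.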
